A study of Mus musculus with 16 samples.

Results

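In CD4+ T cells after myocardial infarction, 16 probe sets of small noncoding RNA genes were followed. They are all the transcript clusters in the authors' deposited 2-fold tables for TCRM and ENDO cells that carry 1 gene symbol and whose symbol begins with Snord, Snora, Scarna, Mir, n-R5s or mt-T. The 16 come from 468 probe sets listed in either table and from 41345 in the value table: 12 are in the TCRM table, 4 are in the ENDO table and 0 are in both. By class there are 4 box C/D small nucleolar RNAs (Snord), 0 box H/ACA small nucleolar RNAs (Snora), 1 small Cajal body RNA (Scarna), 4 microRNA genes (Mir), 5 copies of the 5S ribosomal RNA (n-R5s) and 2 mitochondrial transfer RNAs (mt-T). A further 6 probe sets that pair such a symbol with another gene were left out. None of the 16 shared all its values with another probe set.

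TCRM infarction cells were myosin-specific Thy1.1 CD4+ T cells of naive TCR-M donors, given to Thy1.2 wild-type BALB/c males aged 8 to 12 weeks the day before the left anterior descending coronary artery was tied off (n = 5 arrays), and TCRM sham cells were the same transferred cells in mice with a thoracotomy alone (n = 3). The recipients' own CD4+ T cells of the same animals make up ENDO infarction (n = 5) and, with thoracotomy alone, ENDO sham (n = 3). Every population was sorted as CD4+ and T cell receptor beta+ from the mediastinal lymph node on day 7, with a purity above 98% per the labels, and all mice received buprenorphine for pain. Transferred cells of 1 receptor specificity are a model of a heart-specific T cell and not of the whole repertoire. Since each sample is RNA of a sorted bulk population, fewer cells of a type and less RNA per cell cannot be told apart.

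Small noncoding RNAs act without being translated. Box C/D small nucleolar RNAs guide the methylation of ribosomal RNA with a protein complex that contains fibrillarin, and most are cut from introns of host genes. Small Cajal body RNAs guide the same kind of change on spliceosomal RNAs. MicroRNAs are cut from hairpins and pair through their seed with messenger RNAs, 5S ribosomal RNA is made by RNA polymerase III as part of the large ribosomal subunit, and mitochondrial transfer RNAs are cut from long mitochondrial transcripts. Activated T cells are known to raise ribosome production, which gives these classes their interest here.

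The mature sequences of the microRNA members are shown because they define what each hairpin could act on. They are RefSeq sequences of GRCm38.p6, written 5′ to 3′, with the seed (bases 2 to 8) in capitals.
miR-701-5p, chr5:111004170-111004190, plus strand: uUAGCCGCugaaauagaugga
miR-701-3p, chr5:111004208-111004227, plus strand: uAUCUAUUaaagaggcuagc
miR-3094-5p, chr4:40993696-40993716, plus strand: uGUUGGGGacauuuuuaaagc
miR-3094-3p, chr4:40993738-40993758, plus strand: cCUUUAAAuuguguccucaag
miR-130b-5p, chr16:17124109-17124130, minus strand: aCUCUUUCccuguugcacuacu
miR-130b-3p, chr16:17124071-17124092, minus strand: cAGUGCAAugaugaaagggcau
miR-505-5p, chrX:60394451-60394473, minus strand: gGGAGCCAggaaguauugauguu
miR-505-3p, chrX:60394416-60394437, minus strand: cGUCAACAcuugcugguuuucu

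The 8 mature sequences had 8 different seeds, so no microRNA member shares a seed with another. Among the 1738 mature mouse sequences of that table, the seed of miR-130b-3p is carried by 6 others, among them miR-130a-3p and miR-301a-3p. The seeds of both arms of Mir701 and of Mir3094, and that of miR-505-3p, are carried by no other mature sequence there. The array reports 1 value for each microRNA gene, so it does not separate the arms, and hairpin and mature forms were not distinguished. In the Mir701 hairpin (chr5:111004144-111004252, plus strand), shown because this gene had the most negative difference of the 16, both arms stand in capitals.
Mir701 hairpin: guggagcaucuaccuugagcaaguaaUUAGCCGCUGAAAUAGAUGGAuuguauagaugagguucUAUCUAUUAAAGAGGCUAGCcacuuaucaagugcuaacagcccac

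Of the 16 members 9 were found by symbol in the RefSeq gene table of GRCm38.p6, and many of them lie within another gene. Snord98 lies within Ccar1, Snord61 within Rbmx, Snord70 within Nop58, Snord49a within 2410006H16Rik and Scarna9 within Cep295. Nop58 itself encodes a core protein of the box C/D complex. Mir701 lies within Ttc28, Mir3094 within Nfx1 and Mir130b within 2610318N02Rik, with Mir301b as the nearest other gene of Mir130b. None of these surrounding genes is named in the deposited tables, so their signal was not analysed here. The strand of the surrounding genes was not compared.

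Values are log2 signal of a whole transcript array as deposited by the authors. Per the labels the RNA was amplified before labelling for this array, and how well RNAs of this size came through purification and amplification was not measured. Array medians were 5.37 to 5.43 in TCRM cells and 5.61 to 5.79 in ENDO cells, so levels were not tested between the populations and each difference below was taken within 1 population. ENDO infarction array 5 had the lowest mean correlation with the other arrays of its population (0.891, against 0.928 to 0.955 for the other ENDO arrays and 0.953 to 0.978 for TCRM arrays). Both arrays titled infarction 5 have a source name that says sham. The authors' group averages lay nearer to means of the title groups (median distance 0.052 in TCRM and 0.088 in ENDO cells) than to means of the source name groups (0.192 and 0.284), and the titles were used.

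The TCRM infarction and sham arrays chose 12 of the members, so their TCRM differences are a description with no test. Of the 12, 5 were higher and 7 lower after infarction, against 153 higher and 43 lower of the 196 probe sets in the authors' TCRM table. The classes were mixed: 2 of 3 Snord, the Scarna, 1 of 5 n-R5s and 1 of 3 Mir members were higher. In the authors' deposited table the members' absolute folds ran from 2.02 (Mir130b) to 6.11 (Mir701), their p-values from 0.00363 to 0.0476 and their false discovery rates from 0.209 to 0.369. In limma's fit over 28941 probe sets, 9 of the 12 passed the filter on low signal. Infarction and sham arrays did not overlap for 7 of the 12, where 9.66% of all 41345 probe sets did not, and since the same arrays chose the members nothing is read from that count.

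**Figure D1:**
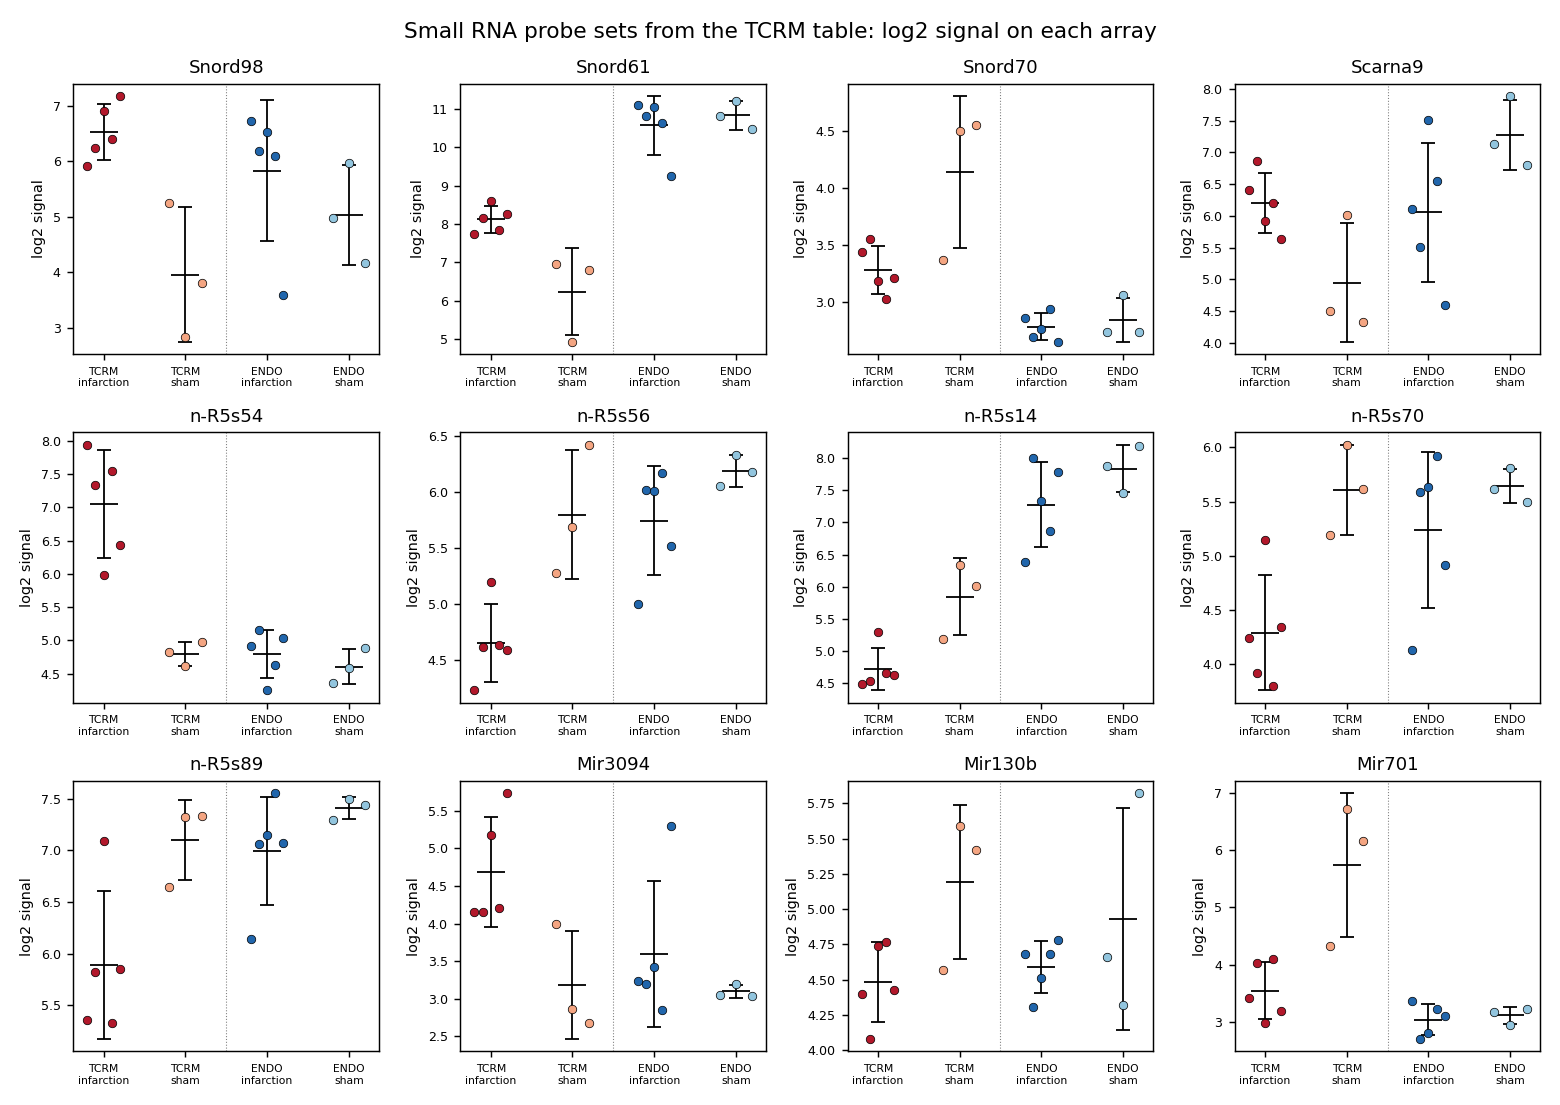
Log2 signal of the 12 members from the TCRM table on each of the 16 arrays, in 4 groups, with the mean and SD in black; each panel has its own scale, which does not start at 0. Snord98, Snord61, n-R5s54 and Mir3094 lie higher on all 5 TCRM infarction arrays than on the 3 TCRM sham arrays, n-R5s56, n-R5s70 and Mir701 lie lower, and no member separates the ENDO groups.

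Snord98, whose human counterpart is a guide for the small ribosomal subunit RNA, had 5.91, 6.24, 6.91, 6.40 and 7.17 log2 signal on the TCRM infarction arrays, against 5.24, 2.84 and 3.80 on the TCRM sham arrays. The groups did not overlap, and the sham arrays were the more spread. The means were 6.53 ± 0.51 (SD, n = 5) and 3.96 ± 1.21 (SD, n = 3), a log2 difference of 2.57 ± 0.66 (SE of limma's fit). Without sham array 2, the lowest array, it was 2.01, and without sham array 1 it was 3.21. Snord61, with a human counterpart that also guides methylation of the small subunit RNA, had 7.74, 8.17, 8.61, 7.84 and 8.25 after infarction, against 6.96, 4.93 and 6.81 after sham operation. The groups did not overlap, and sham array 2 was again far below the others. The difference was 1.89 ± 0.46, 1.24 without that array, and the authors' deposited table gives 1.24 from its bi-weight averages.

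Snord70, likewise a small subunit guide in human cells, was lower after infarction, with 3.44, 3.55, 3.18, 3.02 and 3.21 after infarction, against 3.37, 4.50 and 4.55 after sham operation. Sham array 1 lay among the infarction arrays, so the groups overlapped. The difference was -0.86 ± 0.22, against -1.25 from the averages in the authors' deposited table, and every value lay under the filter on mean signal (log2 4.721). Scarna9, in human cells a guide for the U2 spliceosomal RNA, had 6.41, 6.86, 5.92, 6.20 and 5.63 after infarction, against 4.49, 6.02 and 4.33 after sham operation. Sham array 2 lay above 2 of the infarction arrays. The difference was 1.26 ± 0.54, and it was 1.79 without sham array 2 and 0.95 without sham array 3.

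The 5S copies differed in direction. n-R5s54 had 7.94, 7.33, 5.99, 7.54 and 6.43 on the TCRM infarction arrays, against 4.82, 4.61 and 4.97 on the sham arrays. Its lowest infarction array was 1.03 above its highest sham array, the widest such gap among the 12, and the difference of 2.25 ± 0.35 stayed between 2.03 and 2.51 with any 1 array left out. The other 4 copies were all lower after infarction. n-R5s70 had 4.24, 3.92, 5.15, 3.80 and 4.34, against 5.19, 6.02 and 5.62. n-R5s56 had 4.23, 4.62, 5.20, 4.63 and 4.59, against 5.28, 5.69 and 6.42. In both, infarction array 3 was the highest infarction array and lay just below the lowest sham array, by 0.04 and 0.08.

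n-R5s89 had 5.36, 5.82, 7.09, 5.33 and 5.85 after infarction, against 6.65, 7.32 and 7.33 after sham operation. n-R5s14 had 4.48, 4.53, 5.30, 4.66 and 4.63, against 5.18, 6.34 and 6.01. In these copies infarction array 3 lay above sham array 1, so the groups overlapped. The 4 differences were -1.32 ± 0.37 (n-R5s70), -1.21 ± 0.36 (n-R5s89), -1.14 ± 0.29 (n-R5s56) and -1.12 ± 0.35 (n-R5s14), on the log2 scale with SE. Infarction array 3 was the highest infarction array for all 4 and the lowest for n-R5s54. The 5S copies belong to a family of closely similar sequences, so the identity of each is uncertain, and how far the probe sets respond to each other's RNA was not tested.

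**Figure D2:**
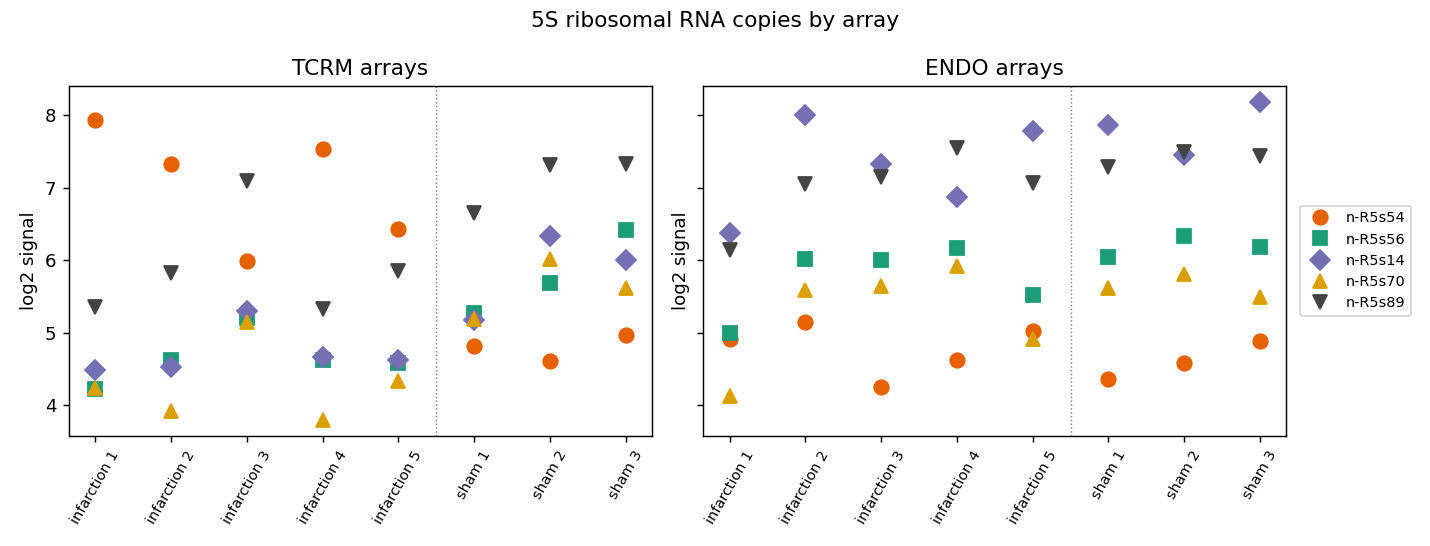
Log2 signal of the 5 copies of 5S ribosomal RNA on each array, TCRM arrays on the left and ENDO arrays on the right, with infarction arrays left of the dotted line in each panel. On the TCRM infarction arrays n-R5s54 is between 5.99 and 7.94 while its sham values stay at or under 4.97, and on ENDO infarction array 1 the other 4 copies are at their lowest ENDO values.

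Of the 3 microRNA genes, Mir701 had the most negative difference of all members. It had 3.41, 4.02, 2.98, 4.10 and 3.19 after infarction, against 4.33, 6.72 and 6.16 after sham operation. The groups were apart by 0.23, and sham array 1 lay near the infarction arrays. The difference was -2.20 ± 0.41, and it was -2.90 without sham array 1 and -1.70 without sham array 2. Mir3094 had 4.15, 4.15, 5.18, 4.21 and 5.73, against 4.0, 2.86 and 2.68. Its groups were apart by 0.15, again next to sham array 1, and the difference was 1.51 ± 0.51. Mean signal of Mir701 (3.71), Mir3094 (3.76) and Snord70 (3.20) over 16 arrays was under the filter, and signal over background is not known, so the size of these differences is uncertain.

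Mir130b, of the miR-130 and miR-301 family, had 4.40, 4.08, 4.74, 4.77 and 4.43 after infarction, against 4.57, 5.59 and 5.42 after sham operation. Sham array 1 lay among the infarction arrays. The difference was -1.02 without that array and -0.51 without sham array 2. The difference of -0.71 ± 0.30 on all arrays was a 1.63-fold change by plain means, against 2.02-fold in the authors' deposited table, where the averages are bi-weight. Mir130b and Snord70 (1.81-fold) were the 2 members of the 16 that were less than 2-fold apart by plain means. Mir130b was also the member just inside the authors' thresholds, followed by n-R5s56 (2.21-fold) and Snord49a (2.30-fold). Probe sets just outside are unnamed and were not analysed here.

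One array stood close to infarction for most of these members. TCRM sham array 1 was the sham array nearest to the infarction arrays for 10 of the 12, the exceptions being n-R5s54 and Scarna9. It had that place in 55.1% of the 196 probe sets of the authors' TCRM table. Infarction array 3 was the infarction array nearest to sham for 5 of the 12 and for 58.2% of the table.

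The ENDO arrays did not enter the choice of these 12 members, so the ENDO comparison tests whether they also differed between operations in the recipients' own cells. No member passed the test there. Of the 9 that passed the filter 0 had an adjusted p under 0.05 by limma (0.888% of 28941 probe sets did), and 1 had an unadjusted p under 0.05 (11.5% did). The adjusted p-values ran from 0.395 to 0.914. In ENDO cells the infarction and sham means of Mir130b (4.59 and 4.93) and n-R5s54 (4.80 and 4.61) lay near the filter cutoff of log2 4.721. Their means over 16 arrays (4.74 and 5.46) were raised by TCRM sham (5.19, Mir130b) and TCRM infarction arrays (7.05, n-R5s54), which had chosen them. Low signal thus limits what their ENDO tests can show. ENDO infarction and sham arrays overlapped for all 12, where 5.95% of all probe sets did not overlap. The median size of the 12 ENDO differences was 0.41, against 1.29 in TCRM cells, which the choice of members raises.

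The member with the unadjusted p under 0.05 was Scarna9, in the direction opposite to TCRM cells. It had 6.11, 5.51, 7.51, 6.55 and 4.59 on the ENDO infarction arrays, against 7.14, 7.89 and 6.81 on the ENDO sham arrays. Infarction array 3 lay among the sham arrays. The difference was -1.23 ± 0.54 (adjusted p = 0.395 by limma, 95% interval -2.39 to -0.07), and -0.86 without infarction array 5. The SE and interval use a spread shared with the TCRM arrays. With the 8 ENDO arrays alone the adjusted p by limma was 0.668, and 0 of the tested members had an unadjusted p under 0.05. The difference of responses between the populations was not tested, because the TCRM contrast chose the member.

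Snord98 had 6.73, 6.19, 6.53, 6.09 and 3.60 on the ENDO infarction arrays, against 4.97, 5.96 and 4.16 on the ENDO sham arrays. The first 4 infarction arrays were higher than any sham array, and infarction array 5 was lower than any. The difference was 0.80 ± 0.66 (adjusted p = 0.743 by limma, 95% interval -0.62 to 2.21), and 1.35 without array 5. Snord61 had 11.11, 10.83, 11.05, 10.64 and 9.25, against 10.83, 11.22 and 10.47. Array 5 was the low one again, and the difference of -0.27 ± 0.46 (adjusted p = 0.903 by limma, 95% interval -1.25 to 0.71) became 0.07 without it. Mir3094 had 3.23, 3.19, 3.42, 2.85 and 5.30, against 3.05, 3.20 and 3.04. Here array 5 was the high one, and the difference of 0.50 became 0.08 without it.

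n-R5s54, the copy with the wide gap in TCRM cells, had 4.92, 5.15, 4.25, 4.63 and 5.03 on the ENDO infarction arrays, against 4.36, 4.58 and 4.88 on the ENDO sham arrays. The groups overlapped, with a difference of 0.19 ± 0.35 (adjusted p = 0.914 by limma) and a 95% interval of -0.57 to 0.95.

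The 4 other copies overlapped as well in ENDO cells. n-R5s14 had 6.38, 8.00, 7.33, 6.87 and 7.78 on the ENDO infarction arrays, against 7.87, 7.45 and 8.19 on the ENDO sham arrays. n-R5s56 had 5.00, 6.02, 6.01, 6.17 and 5.52, against 6.05, 6.33 and 6.18. In both, infarction array 1 was the lowest of the 8 arrays. n-R5s70 had 4.13, 5.59, 5.64, 5.92 and 4.92, against 5.62, 5.81 and 5.50. n-R5s89 had 6.14, 7.06, 7.15, 7.55 and 7.07, against 7.29, 7.50 and 7.44. For these copies infarction array 4 was the highest of all 8 arrays. The 4 copies had ENDO differences of -0.57 ± 0.35 (n-R5s14), -0.44 ± 0.29 (n-R5s56), -0.42 ± 0.36 (n-R5s89) and -0.40 ± 0.37 (n-R5s70), with adjusted p from 0.600 to 0.773 by limma. All 4 had their lowest ENDO signal on infarction array 1, and without it the differences were -0.34, -0.26, -0.20 and -0.12.

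Mir130b had 4.68, 4.31, 4.51, 4.68 and 4.78 on the ENDO infarction arrays, against 4.66, 4.32 and 5.82 on the ENDO sham arrays. Sham array 3 alone stood above the infarction arrays. The difference was -0.34 ± 0.30 (adjusted p = 0.756 by limma), and 0.10 without sham array 3. Snord70 had 2.86, 2.69, 2.76, 2.94 and 2.65, against 2.73, 3.06 and 2.73, a difference of -0.06 that was 0.05 without sham array 2. Mir701 had 3.36, 2.70, 2.81, 3.22 and 3.10, against 3.17, 2.95 and 3.23, a difference of -0.08 that was 0.01 without infarction array 2. Both were under the filter, and their groups overlapped widely.

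The sign of the ENDO difference was that of the TCRM difference for 10 of the 12 members, the exceptions being Snord61 and Scarna9. Of the 10, Mir130b, Snord70 and Mir701 took the opposite sign with 1 ENDO array left out. Over the 196 probe sets of the authors' TCRM table the sign was shared by 75.5%. The populations came from the same animals but share no array.

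**Figure D3:**
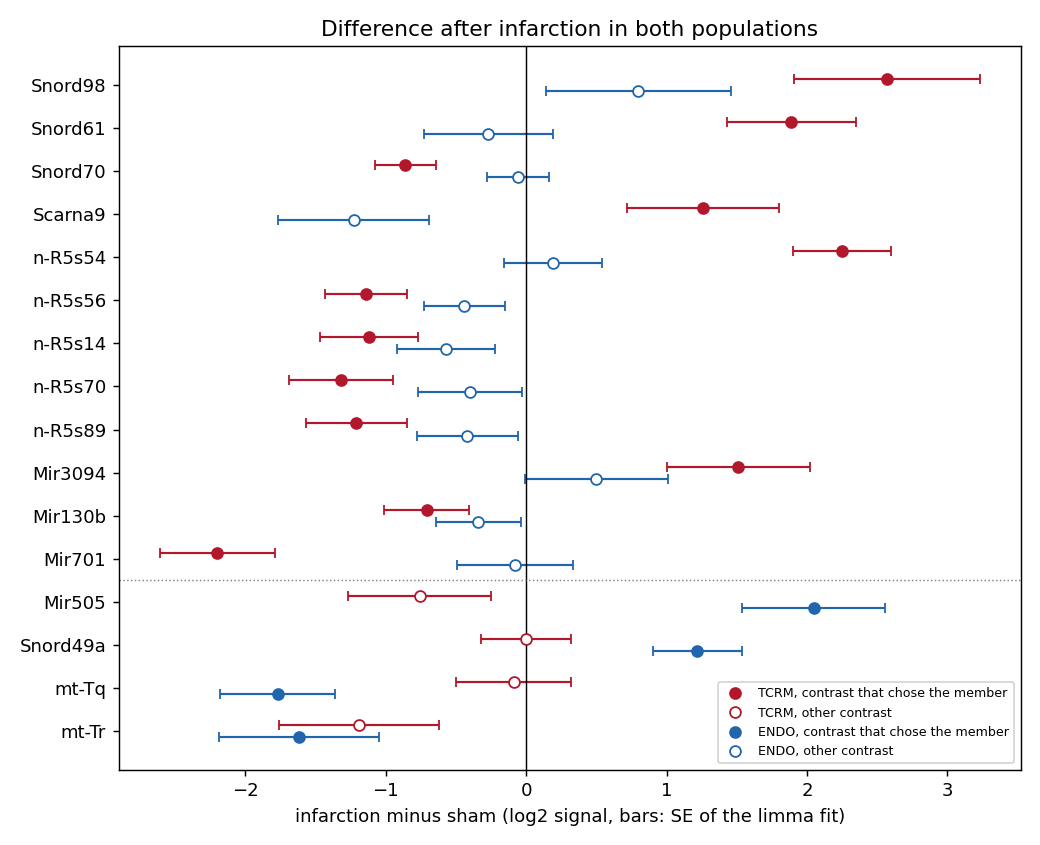
Infarction minus sham difference of log2 signal for each member in TCRM (red) and ENDO cells (blue), with the SE of limma's fit; filled points are the contrast that chose the member and open points the other contrast, and the dotted line parts the 12 TCRM table members from the 4 ENDO table members. The open points lie between -1.23 (Scarna9) and 0.80 (Snord98), and filled points between -2.20 (Mir701) and 2.57 (Snord98).

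The spread between arrays was wide for most of these probe sets when set against all tested probe sets. The other probe sets of the 2-fold tables were not compared, so the spread is not shown to be particular to small RNAs. Mir3094, Snord70 and Mir701 lie under the filter that the tested probe sets passed. Residual SD in ENDO cells was above the median of all tested probe sets (0.272) for 10 of the 12 TCRM table members, with Snord98 at 1.16, Scarna9 at 0.95 and Mir3094 at 0.80. Snord70 (0.15) and Mir701 (0.24) were the 2 below it. For the ENDO table members the residual SD in TCRM cells was 0.92 for Mir505, 0.89 for mt-Tr, 0.52 for mt-Tq and 0.43 for Snord49a, all above the TCRM median of 0.197.

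The 5S copies were also followed across the 8 ENDO arrays, infarction and sham together, which had not chosen them. n-R5s56 and n-R5s89 correlated with a Pearson r of 0.933 (exact permutation p = 0.000868, adjusted p = 0.00868 over 10 pairs of copies) and a Spearman rho of 0.857 (exact permutation p = 0.0107, adjusted p = 0.107). Leaving out the 2 arrays farthest from the median of n-R5s56 gave an r of 0.826. n-R5s56 and n-R5s70 had an r of 0.970 (exact permutation p = 0.00322, adjusted p = 0.0154), a rho of 0.643 (exact permutation p = 0.0962, adjusted p = 0.287) and an r of 0.481 without those 2 arrays. n-R5s70 and n-R5s89 had an r of 0.924 (exact permutation p = 0.00461, adjusted p = 0.0154), a rho of 0.786 (exact permutation p = 0.0279, adjusted p = 0.140) and an r of 0.585 without the 2 farthest. The 3 pairs of n-R5s14 with these copies had r between 0.455 and 0.543, and 0.0038 or less without the 2 farthest arrays. The 4 pairs with n-R5s54 had r between -0.453 and 0.140. Both relations of n-R5s70 thus rested in part on the 2 farthest arrays. Without infarction array 1 alone, the r was 0.755 for n-R5s56 with n-R5s89, 0.897 for n-R5s56 with n-R5s70 and 0.660 for n-R5s70 with n-R5s89. The r of n-R5s14 was then negative, at -0.208 with n-R5s56, -0.517 with n-R5s70 and -0.411 with n-R5s89. Each operation has fewer than 6 ENDO arrays, so no correlation within an operation is given. The permutations pooled both operations, so a difference between operations that copies share enters the r. How far these probe sets respond to each other's RNA was not tested, and correlations of other probe sets were not computed. These p-values therefore do not show that separate 5S copies vary together.

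The 4 members of the ENDO table were chosen by the ENDO infarction and sham arrays, and those differences are again a description. Mir505 and Snord49a were higher and both mitochondrial transfer RNAs lower after infarction. In the authors' deposited table their false discovery rates were 0.515 to 0.680. All 4 passed the filter on low signal, mt-Tq (mean 4.83 over 16 arrays) only through the ENDO arrays that chose it. ENDO infarction and sham arrays did not overlap for 3 of the 4, where 5.95% of all probe sets did not, and again the same arrays had chosen them.

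**Figure D4:**
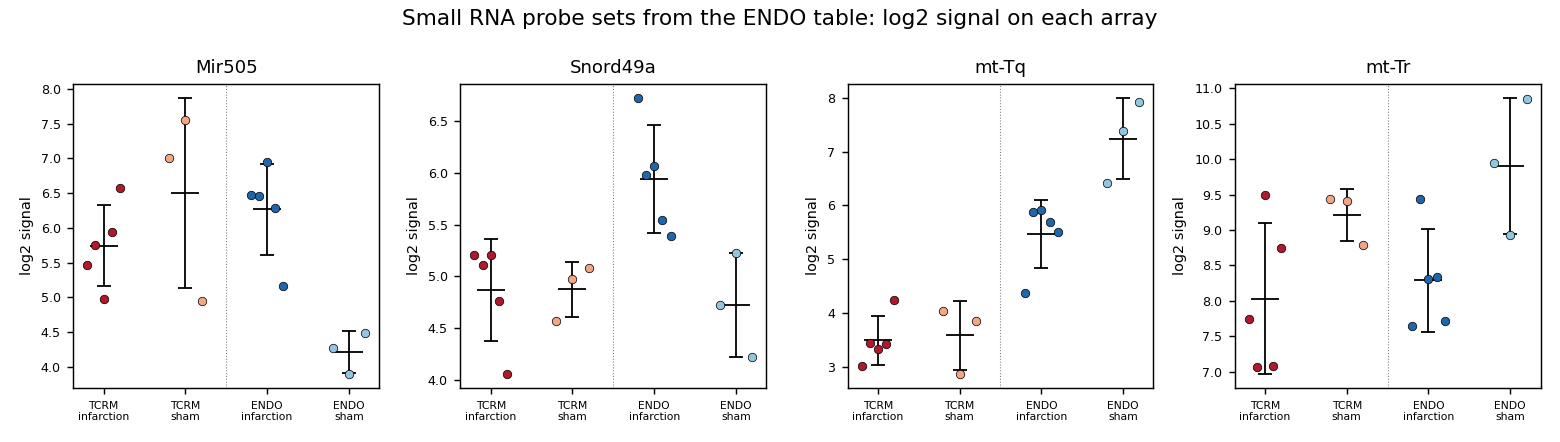
Log2 signal of the 4 members from the ENDO table on each of the 16 arrays, with the mean and SD in black; each panel has its own scale, which does not start at 0. In ENDO cells Mir505 and Snord49a are higher and mt-Tq is lower on all 5 infarction arrays than on the 3 sham arrays, and in TCRM cells the groups overlap in every panel.

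Mir505 had 6.47, 6.46, 6.95, 6.28 and 5.17 on the ENDO infarction arrays, against 4.27, 3.89 and 4.49 on the ENDO sham arrays. The groups were apart by 0.67, and infarction array 5 was nearest to sham. The difference was 2.05 ± 0.51 (SE), and 2.32 without array 5. Snord49a, whose human counterpart guides methylation of the large subunit ribosomal RNA, had 6.73, 5.98, 6.07, 5.55 and 5.39, against 4.72, 5.23 and 4.22. The groups were apart by 0.16, with a difference of 1.22 ± 0.32.

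mt-Tq, the mitochondrial transfer RNA for glutamine, had 4.38, 5.88, 5.92, 5.69 and 5.50 on the ENDO infarction arrays, against 6.42, 7.38 and 7.92 on the ENDO sham arrays. All infarction arrays lay below all sham arrays, and infarction array 1 was the lowest. The difference was -1.77 ± 0.41, and between -2.18 and -1.43 with any 1 array left out. mt-Tr, the transfer RNA for arginine, had 7.64, 9.44, 8.31, 8.34 and 7.71, against 9.94, 8.93 and 10.85. Infarction array 2 lay above sham array 2, and the difference was -1.62 ± 0.57, with -2.10 without sham array 2 and -1.15 without sham array 3. Other mitochondrial transfer RNAs are not among the named probe sets and were not analysed here.

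The TCRM arrays did not choose these 4 members, and none of the 4 passed the test in TCRM cells (0 of 4 by limma's adjusted p, against 0.757% of all probe sets, and 0 of 4 by unadjusted p, against 10.7%). mt-Tr came nearest, with 7.75, 7.07, 9.49, 7.08 and 8.75 on the TCRM infarction arrays, against 9.44, 9.41 and 8.79 on the TCRM sham arrays. Infarction array 3 was above all sham arrays and the other 4 were below them. The difference was -1.19 ± 0.57 (adjusted p = 0.474 by limma, 95% interval -2.39 to 0.02), the direction of ENDO cells. mt-Tq had 3.02, 3.44, 3.33, 3.43 and 4.25, against 4.04, 2.86 and 3.86, with a difference of -0.09 ± 0.41 (adjusted p = 0.979 by limma). All these values lay under the filter on mean signal (log2 4.721), which mt-Tq passed only through its ENDO arrays. Signal over background is not known, so this test cannot tell whether mt-Tq differed in TCRM cells. The groups overlapped for both transfer RNAs in TCRM cells, and the difference between the populations was not tested.

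Mir505 had 5.47, 5.76, 4.98, 5.94 and 6.57 on the TCRM infarction arrays, against 7.01, 7.55 and 4.95 on the TCRM sham arrays. Sham array 3 was below all infarction arrays and the other sham arrays above them. The difference was -0.76 ± 0.51 (adjusted p = 0.666 by limma, 95% interval -1.85 to 0.33). It was -0.24 without sham array 2 and -1.53 without sham array 3. Snord49a had 5.21, 5.11, 5.21, 4.76 and 4.05, against 4.57, 4.97 and 5.08, and the means were 4.87 ± 0.49 (SD, n = 5) and 4.87 ± 0.26 (SD, n = 3). The 95% interval of its difference was -0.69 to 0.68 (adjusted p = 0.999 by limma). For 2 of the 4 the sign was the same in both populations, against 70.4% of the 274 probe sets in the authors' ENDO table.

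The lowest and highest values of the members were also placed by array. The ENDO contrast chose mt-Tq and mt-Tr as lower after infarction. That choice favours a lowest value on an infarction array and a highest value on a sham array, so nothing is read from their places. ENDO infarction array 1 was the lowest of 8 for 6 of the 16 members, n-R5s14, n-R5s56, n-R5s70, n-R5s89, mt-Tq and mt-Tr, and for 15.8% of tested probe sets. ENDO infarction array 5 was the lowest for 4 of the 16, Snord98, Snord61, Snord70 and Scarna9, and for 21.6% of tested probe sets. ENDO infarction array 1 was the highest for 3 members, Snord98, Mir701 and Snord49a, and for 23.1% of tested probe sets. Of these, Snord49a was chosen by the ENDO contrast as higher. ENDO infarction array 5 was the highest for 1 member, Mir3094, and for 26.3% of tested probe sets. Both arrays thus held extreme values for many other probe sets too. ENDO sham array 2 was the highest for Snord61, Snord70, Scarna9 and n-R5s56, and ENDO sham array 3 for Mir130b, n-R5s14, mt-Tq and mt-Tr, against 9.8% and 13.3% of tested probe sets. In TCRM cells sham array 2 was the lowest for 4 members and the highest for 5, against 13.7% and 16.4% of tested probe sets. All of these but mt-Tq and Mir505 were chosen by the TCRM contrast, so nothing is read from those counts. TCRM sham array 3 was the lowest for 25.0% and the highest for 21.4% of tested probe sets. Why these arrays stood at the extremes was not tested.

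Genes that act with these RNAs could be seen only where the deposited tables name them. Of 10 lists, for box C/D proteins, box H/ACA proteins, Cajal body proteins, small nucleolar RNA host genes, assembly factors, microRNA processing, 5S and RNA polymerase III, mitochondrial transfer RNA processing, RNA modification and the spliceosomal core, 1 had a named gene. This was Snrpd3, a core protein of spliceosomal particles and 1 of 7 on its list. Its difference was 0.98 ± 0.17 in ENDO cells, whose table named it, so that value is a description with no test. In TCRM cells it was -0.27 ± 0.17 (adjusted p = 0.647 by limma). Of 7 cell marker lists, those for CD4 T cells, myeloid cells, red cells and stroma had no named gene, so the sort was not checked against the defining markers. Cd22, 1 of 6 on the B cell list, differed by 1.17 ± 0.15 in TCRM cells and by 0.23 ± 0.15 in ENDO cells (adjusted p = 0.628 by limma). Nkg7, 1 of 6 on the CD8 and NK list, differed by 1.06 ± 0.24 and 0.49 ± 0.24 (adjusted p = 0.482 in ENDO cells by limma). Prdm1, 1 of 4 on the plasma cell list, differed by 0.85 ± 0.19 and 0.26 ± 0.19 (adjusted p = 0.696 in ENDO cells by limma). All 3 owe their names to the TCRM table, so their TCRM differences are a description with no test. Their part in the differences of the small RNAs was not tested.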

How the data were processed

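The deposited value table holds log2 signal per probe set, normalized by the authors. Per the submitters' processing notes the software was Affymetrix Expression Console with Transcriptome Analysis Console. The summarisation method is not given in the sources used here. The authors' deposited tables of 2-fold changes give bi-weight averages on the log2 scale, a p-value, its false discovery rate and a signed fold score (infarction over sham), per the file headers. Decimal commas were read as points. Here, a filter at percentile 30 of mean signal (log2 4.721) removed 12404 probe sets and left 28941, and limma 3.58.1 under R 4.3.3 fitted the 4 group means over 16 arrays (lmFit, eBayes, 2-sided, Benjamini-Hochberg over all tested probe sets, threshold 0.05). Of the 16 members 13 passed the filter. Known changes put into simulated data were used to test that fit. Members, gene lists and tests were chosen with earlier results of these data known. Every member is named; values on every array follow a fixed rule (up to 4 members per class and table by size of difference, and all of a class of 3 or fewer), to which the fifth 5S copy, n-R5s14, was added after its values were seen. Correlations used exact permutation in python 3.11.15 with scipy 1.17.1. The number of arrays limits the precision. Alternatives were the filter, the 8 arrays of a population alone, array weights, scaling, replicate blocks, source name groups, identical rows counted once, a threshold of 0.1 and each array left out. Sequences come from RefSeq tables of GRCm38.p6, where no promoter window of a member was found. The gene around 1 member is not reported here.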

Additional observations from a re-analysis of the deposited data

Results flagged for a closer look

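Among the 32 sets of 5 infarction arrays (16 members in each population), 5 held an array far away from the rest, 1 set of TCRM and 4 of ENDO cells. By chance about 1 in 20 sets would if sets were independent and normally distributed. The members share their arrays, so 1 odd array can be counted several times and the count is not judged against that rate. On ENDO infarction array 5, Snord98 was at 3.60 against 6.09 to 6.73 (gap divided by range 0.794), Snord61 at 9.25 against 10.64 to 11.11 (0.751) and Mir3094 at 5.30 against 2.85 to 3.42 (0.768). On ENDO infarction array 1, mt-Tq was at 4.38 against 5.50 to 5.92 (0.732). On TCRM infarction array 3, n-R5s14 was at 5.30 against 4.48 to 4.66 (0.787).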

How the results depend on the processing

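The number of members with an adjusted p under 0.05 by limma in the population that did not choose them was 0 under every alternative run, as reported, for the 4 ENDO table members in TCRM cells and the 9 TCRM table members in ENDO cells, of which a filter at percentile 50 left 2 and 5. At unadjusted p under 0.05 the counts moved between 0 and 2 for ENDO table members (2 with weights per array) and between 0 and 1 for TCRM table members. Over all probe sets TCRM calls (219) became 118 with the 8 TCRM arrays alone, 531 with weights by population, 377 with weights per array, 130 after quantile normalization, 351 at a threshold of 0.1 and 0 with source name groups (2051 at unadjusted p under 0.05). ENDO calls (257) became 0 with the 8 ENDO arrays alone (2333 at unadjusted p under 0.05), 93, 1529, 448 and 524 under the same settings from weights by population to the threshold of 0.1, and 129 with the fixed replicate block. With 1 array left out TCRM calls ran from 113 to 328 (127 and 124 without TCRM infarction arrays 1 and 2, 113 and 127 without sham arrays 2 and 3). ENDO calls ran from 51 to 639 (152 and 639 without ENDO infarction arrays 1 and 5, 51, 170 and 117 without ENDO sham arrays 1, 2 and 3, and 151, 162 and 155 without TCRM infarction arrays 2, 3 and 4). Signs turned only for differences that had not passed. Snord61 in ENDO cells (-0.27) was 0.46 with source name groups and -0.45 to 0.07 with 1 array left out, Mir130b in ENDO cells (-0.34) was -0.64 to 0.10, Snord70 (-0.06) -0.12 to 0.05 and Mir701 (-0.08) -0.16 to 0.01. In TCRM cells mt-Tq (-0.09) was -0.45 to 0.14, and Snord49a (0.00) was 0.05 with weights per array, 0.03 after quantile normalization, 0.01 after median centring, 0.31 with the fixed replicate block, 0.41 with source name groups and -0.15 to 0.20 with 1 array left out. The TCRM difference of Snord98 (2.57) was 1.60 with source name groups. The cause was not tested. Same-numbered arrays of both populations had correlated deviations of -0.089 to 0.077 over 8 pairs, 0 of them above 0.1 and 1 of 8 best with its own number, so the replicate block is an alternative only. A random block by operation and number was added after seeing the data and gave 217 TCRM and 266 ENDO calls.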
